A study of Mus musculus with 18 samples.

Results

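The 24 h fasting response of muscle without PGC-1β was measured by comparing 5 fasted with 5 fed muscle-specific PGC-1β knockout (MKO) mice by poly(A) RNA sequencing. These 10 libraries were taken by their labels from 18 in all, of which the other 8 came from 4 fasted and 4 fed WT mice. All animals were adult C57Bl6/J males, 10 weeks of age or older. In MKO mice a floxed Ppargc1b gene, which encodes PGC-1β, was recombined by a Cre under the human skeletal actin (HSA) promoter, which removes exons 4 to 6 in skeletal muscle. WT mice carried the floxed gene without Cre. HSA is active in muscle fibers, so vessels, fibroblasts and immune cells of an MKO muscle keep the gene. Fasted mice were moved to new cages without food in the morning and killed 24 h later, whereas fed mice ate ad libitum. Quadriceps is the muscle given in the labels but gastrocnemius the one in the methods, so the muscle is not settled. Of 46983 genes listed, 11885 reached 0.5 TPM (a transcript level scaled for gene length and for the library's total) in at least 4 of the 10 libraries and were tested.

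Skeletal muscle holds most of the body's protein and takes up much of its glucose. When food is absent, insulin falls and glucocorticoids rise, FoxO transcription factors enter the nucleus and switch on ubiquitin ligases and autophagy genes, and muscle protein is broken down to supply amino acids. Over the same hours muscle turns to fatty acids as fuel, and pyruvate dehydrogenase kinase closes the entry of glucose carbon into the mitochondria. PGC-1β is a transcriptional coactivator related to PGC-1α that is known in muscle for its part in mitochondrial gene expression.

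TPM shares out a fixed total, so each library was also scaled to the same median over the tested genes. Fold changes and tests below are on these scaled values, as log2(TPM + 0.1), with limma and Benjamini-Hochberg adjustment over all 11885 genes, and a call is an adjusted p below 0.05. The log2 scale with a pseudocount understates the change of genes near 0. Levels are given as deposited, errors of log2 changes are SE, and other errors are SD with n = 5 per group. Genes of the mitochondrial genome held 65.8 ± 2.64% of all TPM in fasted and 68.6 ± 1.11% in fed MKO muscle, a difference of -2.85 points (exact permutation test, two-sided, p = 0.0397). That call was lost without fasted replicate 1, 2 or 5 or without fed replicate 2, 3, 4 or 5, where the difference was -2.93 to -1.77 points (p = 0.0635 to 0.0794 in the same exact test). Each library correlated more closely with its own group (mean r over genes 0.982 to 0.985) than with the other (0.944 to 0.961). Read depth is unknown from TPM values. Nothing in the labels says from how many cages or days the mice came, so p-values measure the spread between these libraries.

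The labels carry a number for each mouse whose meaning is not given, and it was 130 and 132 for fed MKO replicates 1 and 2, against 223 to 225 for fed MKO replicates 3 to 5 and 396 to 401 for the fasted MKO mice. Fed replicates 1 and 2 stood apart from the other 3 fed libraries for several genes described below. Each library has its own number, and the numbers of fasted and fed MKO mice do not overlap in range. The study states that mice were assigned to fed or fasted groups at random. Whether the numbers mark sets of mice is unknown. A difference between such sets and the effect of food cannot be told apart for any gene. The gene-level TPM of Ppargc1b was 1.03, 0.422, 1.11, 0.841 and 0.809 TPM in fasted MKO muscle, against 1.92, 1.76, 2.29, 2.35 and 2.34 TPM in fed MKO muscle. The values were lower in every fasted than in every fed library (log2 change -1.35 ± 0.22, limma adjusted p = 3.10e-04). In WT muscle the gene had 1.15, 1.12, 0.726 and 1.47 TPM in fasted WT muscle, against 2.05, 1.77, 1.45 and 1.56 TPM in fed WT muscle, so levels of fed MKO and fed WT muscle overlapped. A gene-level value also counts reads from the exons that remain in MKO mice, and so it does not check the deletion.

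The samples had the makeup of limb muscle. The 8 muscle fiber markers summed to 66165 ± 7049 TPM in fasted and 55441 ± 3040 TPM in fed MKO muscle, with no overlap (exact permutation test, two-sided, adjusted p = 0.0317 over 12 cell type lists), and 2 of the 8 were called higher and 1 lower. The satellite cell markers summed to 41.7 ± 3.26 TPM in fasted and 24.9 ± 2.15 TPM in fed muscle and the smooth muscle and pericyte markers to 960 ± 67.9 TPM in fasted and 809 ± 38.2 TPM in fed muscle, each with an adjusted p of 0.0317 in the same exact permutation test. The adjusted p of these 3 sums was 0.0635 (exact permutation test) when any 1 library other than fed replicate 5 was left out. The raw p was then 0.0159 in the same test, the lowest that 4 against 5 libraries can give. The lost calls thus follow from the number of libraries and do not show a weaker difference. The satellite cell sum and the smooth muscle and pericyte sum were each carried by 1 gene that muscle fibers also express, Sdc4 and Des. By contrast, 2 of 5 tested satellite cell markers and 5 of 7 smooth muscle and pericyte markers were called lower. The sums of the neutrophil markers and of the T and B cell markers stayed below 1.41 TPM in each of the 10 libraries. In bulk RNA, fewer cells of a type and less RNA per cell cannot be told apart.

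Fasting changed a large part of the muscle transcriptome without PGC-1β. Of the 11885 genes, 45.9% passed the test (5460 genes), 21.1% as higher (2513 genes) and 24.8% as lower (2947 genes) in fasted muscle. The split moved with the scaling, since 23.4% were called higher and 18.8% lower on the values as deposited, whose median over genes lay 0.06 higher. Calls in both scalings were made for 2504 genes as higher and 2238 as lower, and none was called in opposite directions. All 5 fasted libraries lay above or below all 5 fed libraries for 30.3% of genes as deposited. Most changes were small: 320 genes rose and 388 fell by over 2-fold, and 57 rose and 39 fell by over 4-fold. The counts for gene groups below are to be read against these shares and against the median over all genes tested, which was -0.053 on the log2 scale.

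The 2 ubiquitin ligases that mark muscle atrophy had the steepest changes among the protein breakdown genes described here. Trim63, which encodes the ligase MuRF1 that tags myofibrillar proteins (GRCm38 chr4:134315120-134329629, plus strand), had 1008, 1587, 598, 735 and 768 TPM in fasted MKO muscle, against 58.3, 62.3, 57.7, 70.6 and 66.6 TPM in fed MKO muscle. Fbxo32, which encodes the ligase atrogin-1 (chr15:58175879-58214932, minus strand), had 499, 699, 378, 506 and 519 TPM in fasted MKO muscle, against 60.8, 54.2, 80.1, 78.2 and 62.9 TPM in fed MKO muscle. For both, every fasted library lay several-fold above every fed one, and fasted replicate 2 was the highest (Trim63 log2 change 3.75 ± 0.18, limma adjusted p = 3.56e-08, and Fbxo32 log2 change 2.88 ± 0.14, limma adjusted p = 3.56e-08). Fbxo31, the substrate receptor of a further SCF ligase, followed with 12.95, 15.8, 11.1, 11.8 and 13.5 TPM in fasted MKO muscle, against 4.38, 4.23, 3.78, 4.27 and 4.31 TPM in fed MKO muscle (log2 change 1.54 ± 0.076, limma adjusted p = 4.67e-08). Cblb, a ligase that restrains insulin and IGF signaling (log2 change 1.42 ± 0.094), and Fbxo21 (log2 change 1.18 ± 0.10) rose as well. Of the listed ligases, 13 of 23 tested genes were higher and 2 lower, with a median log2 change of 0.23, and the large changes were those of a few members. Fbxo40, a muscle ligase for the insulin receptor substrate, changed by 0.17 only, a call that was lost under most of the alternatives tried.

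**Figure D1:**
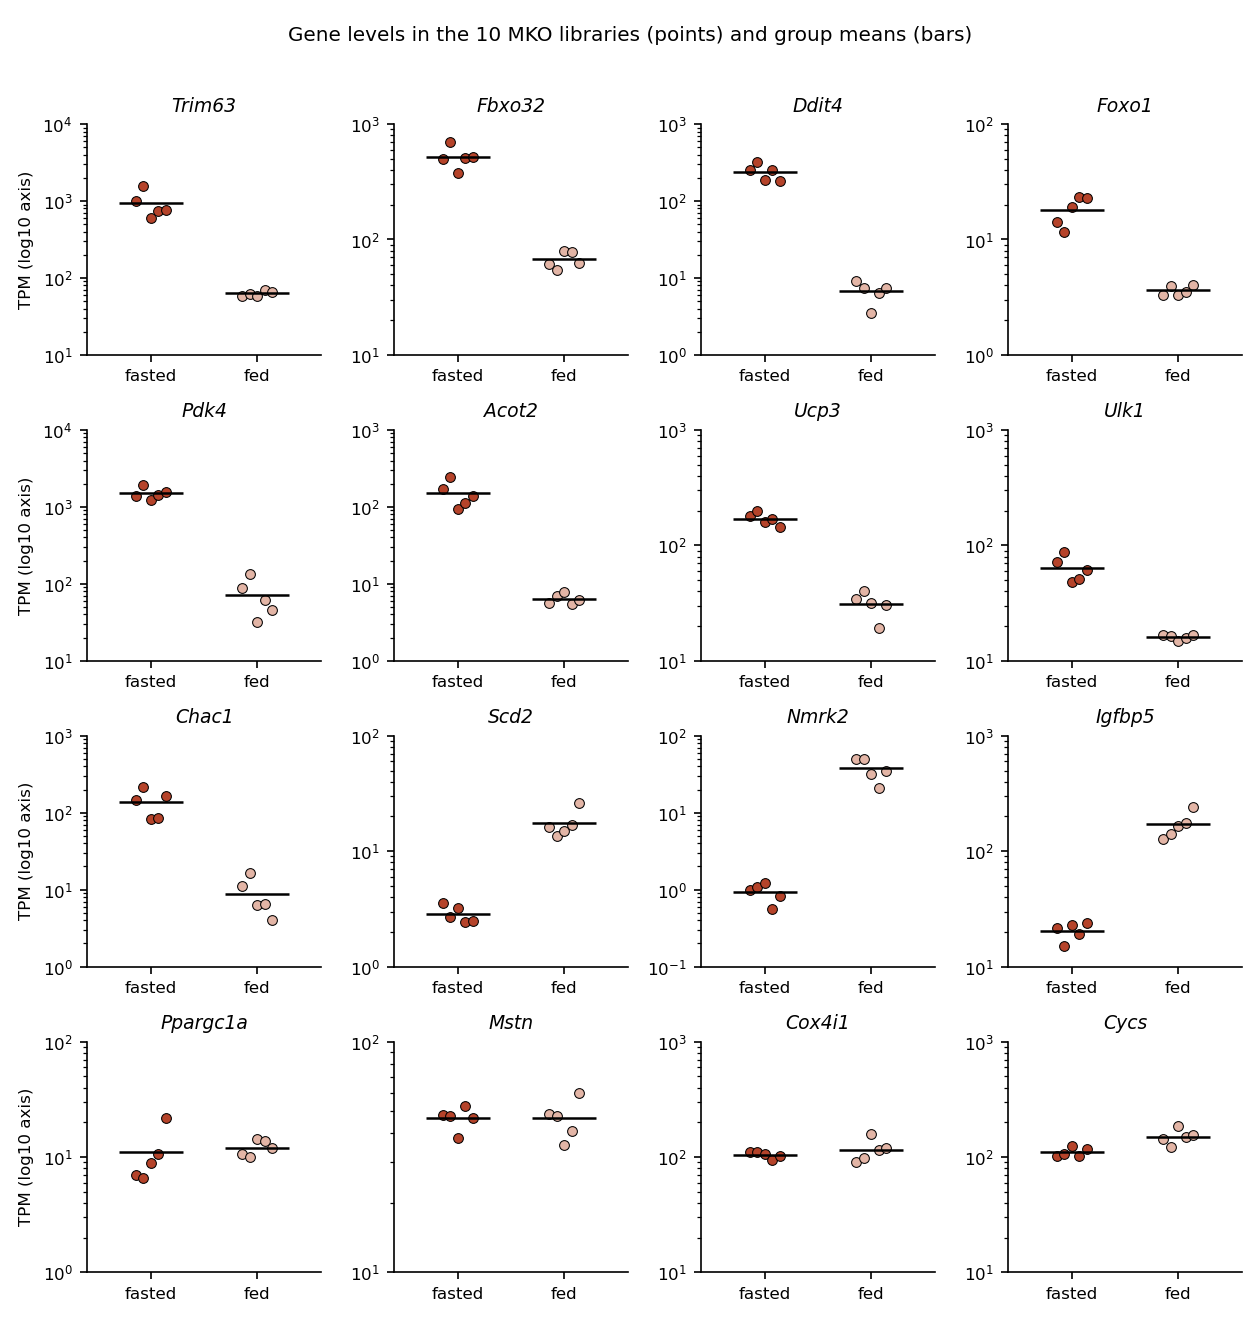
Level of 16 genes in each of the 10 MKO libraries, on a log10 axis in TPM, with the 5 fasted libraries left and the 5 fed libraries right in each panel and a bar at each group's mean. In the 12 panels of genes that rose or fell with no overlap the 2 clouds of points are apart, as for Trim63 (log2 change 3.75) and Nmrk2 (-5.22), whereas the clouds of Ppargc1a, Mstn, Cox4i1 and Cycs overlap.

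The promoters of 4 genes that rose are shown because FoxO factors and E-box binding factors are known regulators of this gene class. They were picked from promoters that hold the motif marked below, so the matches shown are no result about genes that rose. Each run is 300 bases of RefSeq sequence (GRCm38.p6, plus strand), 250 before and 50 after the first listed start, at chr4:134314870-134315169, chr10:41810324-41810623, chr6:34862896-34863195 and chr6:90462326-90462625. Capitals mark TGTTTAC, a FoxO-type motif, in the first 3 and CACGTG, an E-box, in the last, both searched on either strand.
Trim63: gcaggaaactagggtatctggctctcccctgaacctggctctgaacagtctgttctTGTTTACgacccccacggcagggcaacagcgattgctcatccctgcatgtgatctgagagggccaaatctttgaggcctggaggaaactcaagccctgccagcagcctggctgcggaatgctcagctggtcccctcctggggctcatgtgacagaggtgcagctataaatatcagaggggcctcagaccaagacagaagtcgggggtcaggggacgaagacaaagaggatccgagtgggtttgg
Sesn1: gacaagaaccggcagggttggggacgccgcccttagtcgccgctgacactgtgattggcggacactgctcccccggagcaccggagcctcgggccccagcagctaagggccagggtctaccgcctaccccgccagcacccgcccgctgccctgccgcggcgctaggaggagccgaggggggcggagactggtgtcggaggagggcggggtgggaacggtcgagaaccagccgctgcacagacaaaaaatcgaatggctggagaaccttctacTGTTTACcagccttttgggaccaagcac
Tmem140: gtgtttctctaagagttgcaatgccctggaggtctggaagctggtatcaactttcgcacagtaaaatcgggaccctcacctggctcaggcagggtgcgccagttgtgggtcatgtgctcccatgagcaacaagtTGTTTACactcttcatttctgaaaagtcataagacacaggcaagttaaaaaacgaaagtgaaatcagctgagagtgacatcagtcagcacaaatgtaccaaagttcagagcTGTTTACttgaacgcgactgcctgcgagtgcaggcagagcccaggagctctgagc
Klf15: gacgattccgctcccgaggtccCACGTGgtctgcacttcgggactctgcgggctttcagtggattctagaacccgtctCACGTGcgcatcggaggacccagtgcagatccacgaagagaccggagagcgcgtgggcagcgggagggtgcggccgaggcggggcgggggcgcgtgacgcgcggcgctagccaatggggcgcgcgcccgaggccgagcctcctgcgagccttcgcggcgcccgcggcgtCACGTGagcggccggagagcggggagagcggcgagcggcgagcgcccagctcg

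The FoxO-type letters began 194 bases before the start in Trim63, at base 23 after it in Sesn1, and 116 and 5 bases before it in Tmem140, while Klf15 held the E-box 3, 172 and 228 bases before its start. Among the 9255 tested genes with a promoter entry (77.9% of those tested), 2.47% held the FoxO-type motif and 10.7% the E-box, against 3.55% and 7.24% of all 27025 promoters of the table. Of the 240 genes described under the naming rule that had an entry, 5 that rose and 2 that fell held the FoxO-type motif. The E-box was held by 20 that rose and 3 that fell. How many of the 240 rose or fell is not set beside these counts, so they do not compare the directions. A match of letters is no measured binding site, and with 77.9% of tested genes having an entry, shares were not compared between genes that rose and fell.

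The proteasome, the protease that degrades ubiquitin-tagged proteins, rose across both of its parts. In the 20S core 11 of 14 tested genes were higher and 1 lower, with a median log2 change of 0.44, and in the 19S regulator 17 of 21 tested genes were higher and 0 lower (0 at an unadjusted p below 0.05), with a median log2 change of 0.51. Psmd11, a subunit of the regulator's lid, had 40.8, 51.1, 30.5, 34.5 and 41.1 TPM in fasted MKO muscle, against 17.0, 16.3, 20.4, 18.9 and 19.8 TPM in fed MKO muscle (log2 change 1.02 ± 0.10, limma adjusted p = 6.34e-06), with the groups apart. Psma5, a subunit of the core's outer ring, had 46.8, 59.9, 42.1, 51.0 and 55.0 TPM in fasted MKO muscle, against 25.1, 27.1, 31.2, 30.7 and 31.4 TPM in fed MKO muscle (log2 change 0.74 ± 0.086, limma adjusted p = 2.56e-05). The log2 changes of the regulator subunits that rose lay between 0.24 and 1.02. Among ubiquitin genes and the enzymes that activate and carry ubiquitin, by contrast, 9 of 27 tested genes were higher and 6 lower, with a median log2 change of -0.0026 that was positive as deposited. Ubb, a ubiquitin gene, averaged 735 ± 145 TPM in fasted and 365 ± 28.9 TPM in fed MKO muscle (log2 change 0.93 ± 0.10, limma adjusted p = 9.50e-06). Of the deubiquitinases, which remove ubiquitin, 8 of 25 tested genes were higher and 0 lower (2 at an unadjusted p below 0.05), with a median log2 change of 0.061 that was lost without the mitochondrial genome. Usp14, the deubiquitinase bound to the proteasome (log2 change 0.68 ± 0.075), and Usp54 (log2 change 0.999 ± 0.17) rose. Usp29 and Usp50 were below the filter on low values.

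In the autophagy list, whose genes deliver cell contents to lysosomes, 23 of 40 tested genes were higher and 6 lower, with a median log2 change of 0.32. Gabarapl1, an ATG8 protein of the autophagosome membrane, had 109, 243, 76.6, 69.0 and 114 TPM in fasted MKO muscle, against 15.1, 15.2, 18.3, 23.02 and 16.2 TPM in fed MKO muscle (log2 change 2.59 ± 0.25, limma adjusted p = 6.34e-06). Fasted replicate 2 was again the highest, and without it every fasted library still lay above every fed one. Ulk1, the kinase that starts autophagy, had 71.9, 87.3, 48.1, 51.6 and 61.2 TPM in fasted MKO muscle, against 16.7, 16.2, 14.9, 15.9 and 16.8 TPM in fed MKO muscle (log2 change 1.89 ± 0.11, limma adjusted p = 1.92e-07), with a several-fold gap between the means of the groups. The cargo receptor Sqstm1 averaged 288 ± 55.0 TPM in fasted and 117 ± 5.74 TPM in fed MKO muscle, the mitophagy receptor Bnip3 292 ± 41.8 TPM in fasted and 117 ± 3.36 TPM in fed MKO muscle and Trp53inp1, a binding partner of ATG8 proteins, 14.4 ± 1.66 TPM in fasted and 3.95 ± 0.677 TPM in fed MKO muscle; all passed the test. Of the lysosomal genes 16 of 34 tested genes were higher and 2 lower, with a median log2 change of 0.14. The cholesterol exporter of the lysosome Npc1 had 40.7, 58.5, 29.2, 37.4 and 39.7 TPM in fasted MKO muscle, against 10.8, 9.31, 8.34, 9.30 and 10.3 TPM in fed MKO muscle (log2 change 1.99 ± 0.13, limma adjusted p = 2.66e-07). Ctsl, the lysosomal protease cathepsin L, averaged 114 ± 40.9 TPM in fasted and 39.1 ± 1.76 TPM in fed MKO muscle (log2 change 1.41 ± 0.15, limma adjusted p = 1.60e-05), and Gaa, the lysosomal enzyme that breaks down glycogen, 123 ± 18.4 TPM in fasted and 69.4 ± 4.34 TPM in fed MKO muscle (log2 change 0.76 ± 0.079, limma adjusted p = 1.11e-05).

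In the glucocorticoid response list 22 of 30 tested genes were higher and 4 lower, with a median log2 change of 1.27. This was the highest median of the 57 lists. Lists and members were chosen with earlier results of these data known, so that rank is no independent evidence. Ddit4, which encodes REDD1, an inhibitor of the growth kinase complex mTORC1 (chr10:59949669-59951834, minus strand), had 252, 321, 190.0, 253 and 181 TPM in fasted MKO muscle, against 9.26, 7.44, 3.54, 6.44 and 7.31 TPM in fed MKO muscle (log2 change 5.09 ± 0.22, limma adjusted p = 2.64e-08). Cebpd, a transcription factor, had 131, 176, 90.2, 111 and 134 TPM in fasted MKO muscle, against 6.22, 4.81, 3.07, 6.10 and 5.27 TPM in fed MKO muscle (log2 change 4.57 ± 0.18, limma adjusted p = 2.64e-08). For both genes the lowest fasted library lay over 10-fold above the highest fed one. Fkbp5, a co-chaperone that dampens the glucocorticoid receptor, had 44.2, 49.3, 35.7, 40.4 and 33.5 TPM in fasted MKO muscle, against 6.53, 6.15, 7.96, 7.67 and 9.84 TPM in fed MKO muscle (log2 change 2.34 ± 0.11, limma adjusted p = 3.56e-08). The Krüppel-like factors Klf15 and Klf9, both known receptor targets, averaged 30.1 ± 5.73 TPM in fasted and 9.99 ± 2.69 TPM in fed MKO muscle and 149 ± 19.1 TPM in fasted and 55.9 ± 5.04 TPM in fed MKO muscle, with limma adjusted p = 2.76e-05 and 3.42e-07. Arrdc2, an arrestin-domain gene, showed a split among the fed mice, with 103, 101, 91.3, 93.6 and 77.4 TPM in fasted MKO muscle, against 23.5, 17.96, 3.51, 4.58 and 4.81 TPM in fed MKO muscle. Fed replicates 1 and 2 were the highest fed libraries, yet every fasted one was above them (log2 change 3.46 ± 0.47, limma adjusted p = 8.50e-05). The transcript of the receptor itself, Nr3c1, was 26.5 TPM in fasted and 25.0 TPM in fed muscle on average and was not called.

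The mTORC1 list holds the complex, its regulators and related genes such as Depp1. In it, 11 of 28 tested genes were higher and 6 lower, with a median log2 change of 0.089. The gene with the largest change of the list was 8430408G22Rik, known as Depp1, a FoxO target, with 226, 241, 129, 176 and 139.8 TPM in fasted MKO muscle, against 2.03, 1.57, 0.706, 1.66 and 0.572 TPM in fed MKO muscle (log2 change 7.05 ± 0.31, limma adjusted p = 3.03e-08). Eif4ebp1, the repressor of cap-dependent translation that mTORC1 phosphorylates, had 129.97, 167, 85.2, 87.2 and 111 TPM in fasted MKO muscle, against 23.9, 27.0, 20.998, 21.1 and 21.99 TPM in fed MKO muscle (log2 change 2.23 ± 0.14, limma adjusted p = 2.82e-07). Sesn1, a sestrin that lowers mTORC1 activity, had 59.9, 96.0, 44.7, 52.4 and 57.2 TPM in fasted MKO muscle, against 8.58, 11.8, 7.53, 10.7 and 11.8 TPM in fed MKO muscle (log2 change 2.52 ± 0.16, limma adjusted p = 2.82e-07). All 3 genes showed fasted libraries far above fed ones. The related Ddit4l went the other way, with 109 ± 9.03 TPM in fasted and 189 ± 37.98 TPM in fed MKO muscle (log2 change -0.84 ± 0.091, limma adjusted p = 1.52e-05).

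In the insulin signaling and FoxO list 13 of 31 tested genes were higher and 7 lower, with a median log2 change of -0.032 that was positive as deposited. Foxo1 had 14.3, 11.6, 18.96, 23.3 and 22.7 TPM in fasted MKO muscle, against 3.32, 3.96, 3.29, 3.54 and 4.03 TPM in fed MKO muscle (log2 change 2.19 ± 0.19, limma adjusted p = 2.77e-06), and Foxo3 averaged 16.6 ± 2.24 TPM in fasted and 5.28 ± 0.414 TPM in fed MKO muscle (log2 change 1.57 ± 0.081, limma adjusted p = 6.26e-08). These FoxO transcription factors, whose own mRNA rose with no overlap, drive ligase and autophagy genes when insulin is low. The receptors Insr (log2 change 0.74 ± 0.061) and Igf1r (log2 change 1.03 ± 0.10) also rose. The list of IGF ligands and binding proteins had 2 higher and 4 lower of 14 tested genes and a median log2 change of -0.044 (0.016 as deposited). Igfbp5, the main binding protein for IGFs made by muscle, had 21.7, 14.99, 22.97, 18.97 and 23.9 TPM in fasted MKO muscle, against 128, 140.5, 164, 177 and 244 TPM in fed MKO muscle (log2 change -3.09 ± 0.16, limma adjusted p = 6.67e-08), which left every fasted library below every fed one. Igf1, the growth factor itself, averaged 2.50 ± 0.176 TPM in fasted and 6.89 ± 1.87 TPM in fed MKO muscle (log2 change -1.45 ± 0.14, limma adjusted p = 7.00e-06), and the growth hormone receptor Ghr 18.4 ± 0.453 TPM in fasted and 28.3 ± 2.50 TPM in fed MKO muscle (log2 change -0.67 ± 0.081, limma adjusted p = 3.45e-05). Mstn, which encodes the growth inhibitor myostatin, had 48.1, 47.6, 38.1, 52.6 and 46.6 TPM in fasted MKO muscle, against 48.7, 47.5, 35.7, 41.1 and 60.1 TPM in fed MKO muscle and was not called (log2 change -0.045 ± 0.12, limma adjusted p = 0.774). Its list of myostatin, activin and BMP signaling had 7 higher and 14 lower of 39 tested genes, among them lower Gdf11, a close relative of myostatin (log2 change -1.64 ± 0.20), and Smad3, a signal transducer of the pathway (log2 change -0.95 ± 0.073).

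Most genes of fatty acid use rose. The lists counted here also hold genes beside the pathway itself, such as Angptl4 (uptake) and Acot1, Acot2 and Ucp3 (beta-oxidation). Among fatty acid uptake and activation genes 15 of 20 tested genes were higher and 4 lower, with a median log2 change of 0.64, and among mitochondrial beta-oxidation genes 16 of 25 tested genes were higher and 0 lower (0 at an unadjusted p below 0.05), with a median log2 change of 0.46. Angptl4, a secreted inhibitor of lipoprotein lipase, had 15.5, 15.4, 9.34, 9.09 and 10.8 TPM in fasted MKO muscle, against 1.12, 2.46, 0.659, 0.475 and 1.26 TPM in fed MKO muscle (log2 change 3.32 ± 0.32, limma adjusted p = 6.43e-06). Cd36, the fatty acid transporter of the fiber membrane, had 260.0, 279.6, 245, 235 and 284 TPM in fasted MKO muscle, against 105, 115, 117, 122 and 107 TPM in fed MKO muscle (log2 change 1.14 ± 0.07, limma adjusted p = 2.07e-07). Cpt1b, which makes the carnitine esters that enter mitochondria, averaged 103 ± 12.99 TPM in fasted and 62.6 ± 7.29 TPM in fed MKO muscle (log2 change 0.65 ± 0.083, limma adjusted p = 5.22e-05). Acot1 and Acot2, both acyl-CoA thioesterases, had the largest changes of the beta-oxidation list. Acot2, the mitochondrial member, had 169, 245, 94.5, 112 and 138 TPM in fasted MKO muscle, against 5.59, 7.02, 7.78, 5.45 and 6.22 TPM in fed MKO muscle (log2 change 4.41 ± 0.19, limma adjusted p = 2.64e-08), and Acot1, its cytosolic neighbor, 14.2, 24.5, 13.04, 11.8 and 20.8 TPM in fasted MKO muscle, against 0.535, 0.385, 0.592, 0.390 and 0.540 TPM in fed MKO muscle (log2 change 4.74 ± 0.17, limma adjusted p = 2.14e-08). These neighboring genes are close paralogs, so reads may have been split between them. Ucp3, an inner membrane carrier of muscle mitochondria, had 178, 198, 158, 167 and 144 TPM in fasted MKO muscle, against 34.3, 40.5, 31.8, 19.3 and 30.2 TPM in fed MKO muscle (log2 change 2.41 ± 0.17, limma adjusted p = 4.36e-07), and Mlycd, which removes the malonyl-CoA that blocks Cpt1, averaged 43.0 ± 6.51 TPM in fasted and 13.4 ± 1.09 TPM in fed MKO muscle (log2 change 1.60 ± 0.10, limma adjusted p = 1.92e-07). Eci2, an enoyl-CoA isomerase needed for unsaturated fatty acids, was the cycle's leading gene (log2 change 1.13 ± 0.065, limma adjusted p = 1.49e-07).

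Among genes of lipid droplets and lipolysis, 10 of 20 tested genes were higher and 4 lower, with a median log2 change of 0.22. Pnpla2, which encodes the triglyceride lipase ATGL, had 188, 217, 145, 138 and 167 TPM in fasted MKO muscle, against 37.1, 39.4, 55.8, 40.9 and 48.5 TPM in fed MKO muscle (log2 change 1.88 ± 0.12, limma adjusted p = 2.14e-07). Its inhibitor G0s2 had 0.330, 0.644, 0.248, 1.48 and 0.514 TPM in fasted MKO muscle, against 3.26, 4.60, 18.3, 8.87 and 13.2 TPM in fed MKO muscle (log2 change -3.72 ± 0.48, limma adjusted p = 5.69e-05). The lipase and its inhibitor thus moved in opposite directions, each with no overlap between fasted and fed libraries. Plin5, a droplet protein that ties droplets to mitochondria, had 30.6, 21.95, 23.5, 18.3 and 23.4 TPM in fasted MKO muscle, against 2.40, 2.62, 4.20, 3.58 and 3.66 TPM in fed MKO muscle (log2 change 2.75 ± 0.15, limma adjusted p = 8.61e-08). Plin4 averaged 143 ± 19.2 TPM in fasted and 37.1 ± 3.75 TPM in fed MKO muscle (log2 change 1.88 ± 0.088, limma adjusted p = 3.30e-08). Plin4 is also one of the adipocyte markers, whose sum was 403 ± 107 TPM in fasted and 258 ± 41.9 TPM in fed muscle (exact permutation test, adjusted p = 0.0714). Of these 8 markers 2 were called higher and 2 lower, and the part of fat cells in the Plin4 value was not tested.

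The list of pyruvate dehydrogenase, which admits glucose carbon to the mitochondria, and its regulators had 2 higher and 4 lower of 12 tested genes. Pdk4, the kinase that inactivates the enzyme (chr6:5483351-5496309, minus strand), had 1405, 1949, 1224, 1414 and 1542 TPM in fasted MKO muscle, against 88.9, 133, 32.1, 61.1 and 46.1 TPM in fed MKO muscle (log2 change 4.48 ± 0.31, limma adjusted p = 4.22e-07). Fed replicates 1 and 2 held the highest fed values, and the fasted libraries were still over 8-fold above them. The opposing phosphatase Pdp1, which reactivates the enzyme, had 11.05, 8.84, 10.8, 10.9 and 10.8 TPM in fasted MKO muscle, against 27.8, 26.7, 24.6, 23.9 and 28.1 TPM in fed MKO muscle (log2 change -1.38 ± 0.093, limma adjusted p = 3.90e-07), whereas the less abundant Pdp2 averaged 3.88 ± 1.70 TPM in fasted and 0.965 ± 0.124 TPM in fed MKO muscle (log2 change 1.76 ± 0.21, limma adjusted p = 3.75e-05). The subunits of the enzyme itself changed little, Dlat the most (log2 change -0.47 ± 0.12).

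Glycolysis and glycogen genes did not move as a group, with 7 higher and 6 lower of 30 and 6 higher and 3 lower of 19 tested genes. Both medians were near that of all genes (0.017 and 0.061) and turned negative under at least 1 of the 3 other scalings. Single steps did change. Hk2, the hexokinase that traps glucose in muscle, had 28.9, 27.8, 28.6, 28.7 and 26.8 TPM in fasted MKO muscle, against 41.2, 42.4, 59.5, 48.8 and 52.8 TPM in fed MKO muscle (log2 change -0.84 ± 0.095, limma adjusted p = 2.00e-05), and Fbp2, the gluconeogenic bisphosphatase of muscle that opposes glycolysis, 96.9, 178, 64.1, 79.6 and 70.0 TPM in fasted MKO muscle, against 24.4, 29.0, 33.6, 18.5 and 26.1 TPM in fed MKO muscle (log2 change 1.75 ± 0.23, limma adjusted p = 6.74e-05). The enzyme of glucose trapping was thus lower and the enzyme that reverses glycolysis higher in every fasted library. Txnip, which promotes removal of glucose transporters from the membrane, averaged 379.8 ± 47.1 TPM in fasted and 178 ± 47.8 TPM in fed MKO muscle (log2 change 1.08 ± 0.17, limma adjusted p = 2.84e-04). Pfkfb3, which makes the activator of phosphofructokinase, averaged 143 ± 54.4 TPM in fasted and 58.4 ± 17.2 TPM in fed MKO muscle (log2 change 1.21 ± 0.22, limma adjusted p = 8.10e-04), and Tbc1d4, a brake on the transporter GLUT4 that insulin releases, 16.5 ± 1.75 TPM in fasted and 9.21 ± 1.84 TPM in fed MKO muscle (log2 change 0.80 ± 0.12, limma adjusted p = 2.40e-04). Pygm, the glycogen phosphorylase of muscle, averaged 3212 ± 478 TPM in fasted and 2127 ± 191 TPM in fed MKO muscle (log2 change 0.53 ± 0.10, limma adjusted p = 8.46e-04), and Stbd1, which anchors glycogen to membranes for lysosomal breakdown, 10.7 ± 0.766 TPM in fasted and 24.5 ± 7.76 TPM in fed MKO muscle (log2 change -1.19 ± 0.16, limma adjusted p = 1.05e-04). The call of Pygm was lost under quantile normalization.

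No nuclear gene of the respiratory chain complexes described here was called higher. Of the nuclear genes for complex I, 0 of 36 tested genes were higher (0 at an unadjusted p below 0.05) and 5 lower, with a median log2 change of -0.15, and of those for complexes III to V, 0 of 38 tested genes were higher (0 at an unadjusted p below 0.05) and 6 lower, with a median log2 change of -0.14. The counts depended on the scaling, as 3 and 2 genes were called lower on the values as deposited, against 17 and 17 after quantile normalization, while none was called higher under either. Of the 13 proteins encoded by mitochondrial DNA, none had a gene that was called by limma (2 passed an unadjusted p below 0.05, both as lower, and 2 were called lower on the values as deposited), with a median of -0.12. Cycs, which encodes the electron carrier cytochrome c, had 101, 106, 125, 103 and 117 TPM in fasted MKO muscle, against 143, 121, 184, 149 and 155 TPM in fed MKO muscle (log2 change -0.50 ± 0.11, limma adjusted p = 0.00276). The fasted values were low as a group but overlapped with the fed ones. Cox4i1, a core subunit of cytochrome c oxidase, averaged 105 ± 6.87 TPM in fasted and 116 ± 25.7 TPM in fed MKO muscle and was not called (adjusted p = 0.221, limma). The TCA cycle had 3 higher and 2 lower of 19 tested genes, and mitochondrial ribosomal proteins had 7 higher and 16 lower of 75, against 9 higher and 8 lower as deposited and 4 higher and 24 lower without the mitochondrial genome.

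In the list of PGC-1 coactivators and the factors they work with, 12 of 32 tested genes were higher and 6 lower, with a median log2 change of 0.18. Ppargc1a, the gene of the related coactivator PGC-1α, had 7.04, 6.57, 8.91, 10.5 and 21.7 TPM in fasted MKO muscle, against 10.5, 10.05, 14.2, 13.6 and 12.0 TPM in fed MKO muscle. The groups overlapped and the gene was not called (log2 change -0.33 ± 0.27, limma adjusted p = 0.334). Rxrg, a retinoid receptor that pairs with PPAR factors, had 15.9, 13.3, 15.3, 15.2 and 12.6 TPM in fasted MKO muscle, against 27.7, 27.1, 25.9, 23.7 and 26.7 TPM in fed MKO muscle (log2 change -0.92 ± 0.094, limma adjusted p = 1.02e-05), and Mef2c, a muscle transcription factor, averaged 56.0 ± 5.66 TPM in fasted and 91.9 ± 6.20 TPM in fed MKO muscle (log2 change -0.78 ± 0.094, limma adjusted p = 3.74e-05). Polrmt, the RNA polymerase of mitochondria (log2 change 0.69 ± 0.075), and Sirt1, the deacetylase that acts on PGC-1α (log2 change 0.43 ± 0.075), rose.

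**Figure D2:**
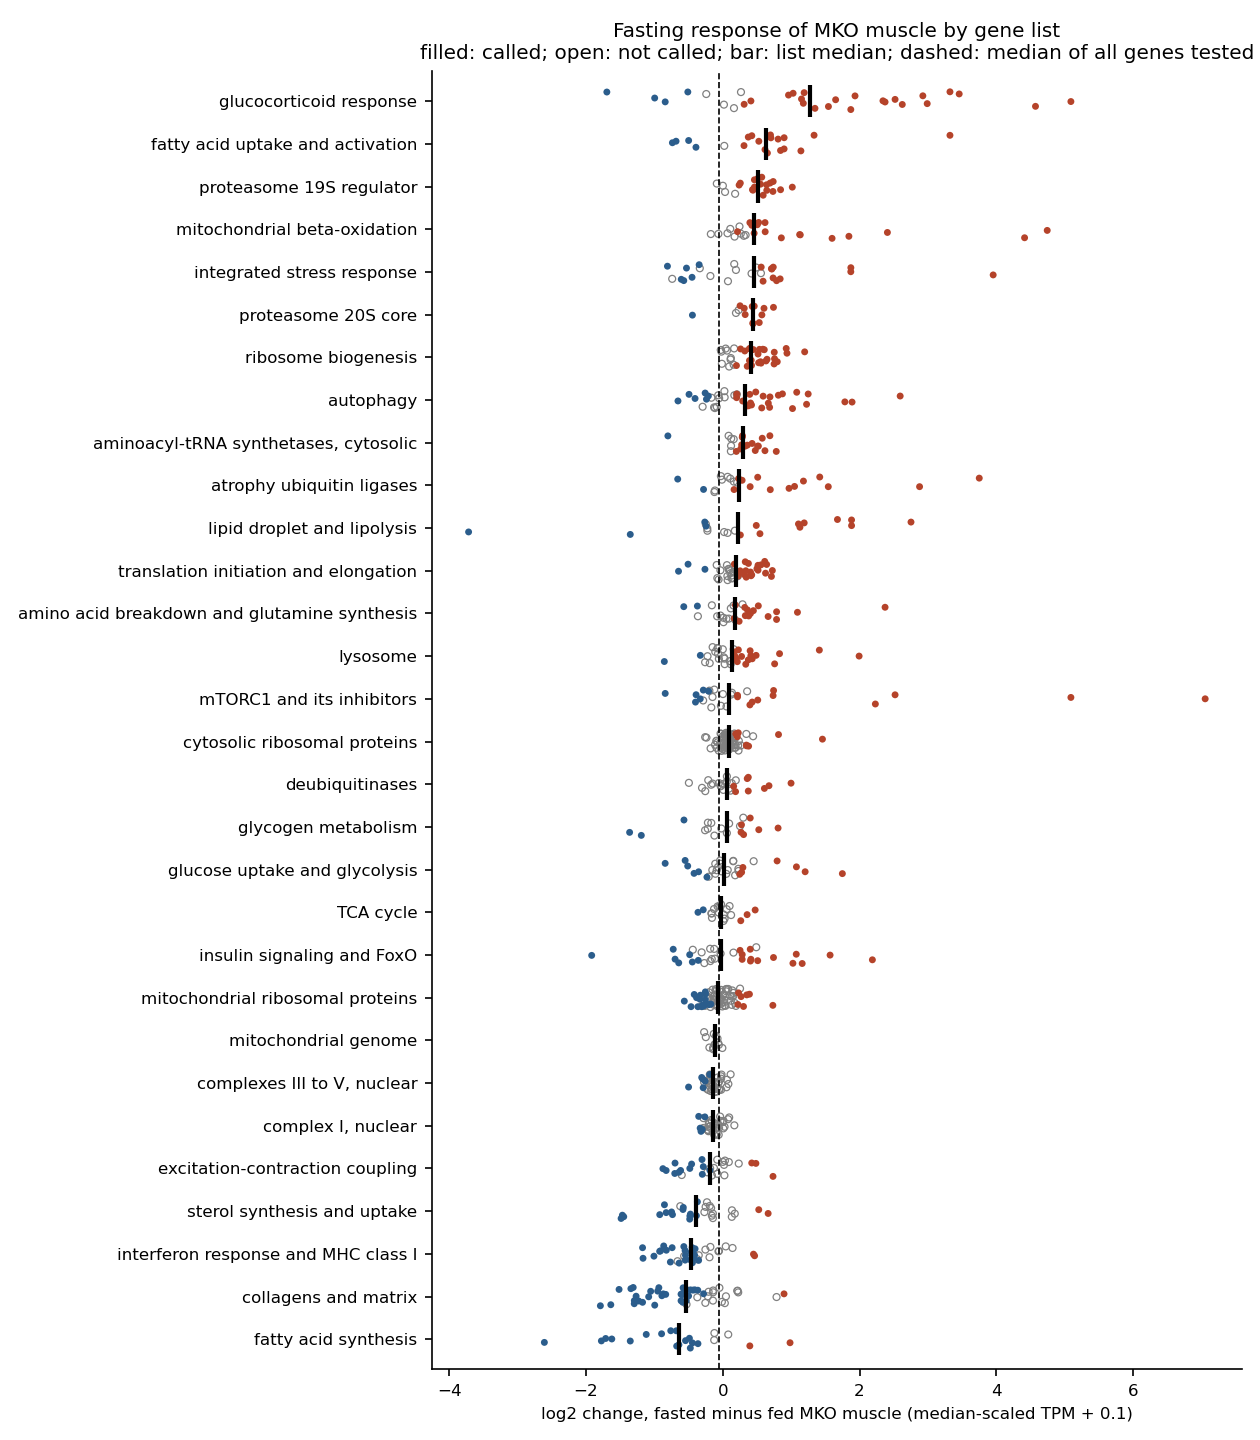
Log2 change in fasted against fed MKO muscle for the tested genes of 30 gene lists, 1 row per list and 1 point per gene, with a bar at the list's median and a dashed line at the median over all 11885 genes. Points of called genes are filled, and the row of the glucocorticoid response reaches to the right (median 1.27), that of the collagens and matrix to the left (-0.53).

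Genes that build ribosomes rose. Of the ribosome biogenesis genes 26 of 36 tested genes were higher and 0 lower (0 at an unadjusted p below 0.05), with a median log2 change of 0.42. Rrs1, an assembly factor of the large ribosomal subunit, had 16.4, 20.6, 14.8, 13.2 and 16.5 TPM in fasted MKO muscle, against 5.95, 6.91, 6.78, 7.37 and 6.55 TPM in fed MKO muscle (log2 change 1.198 ± 0.089, limma adjusted p = 7.80e-07). Ddx21 and Mybbp1a, nucleolar proteins of rRNA synthesis, averaged 19.9 ± 2.59 TPM in fasted and 9.83 ± 0.279 TPM in fed MKO muscle and 24.9 ± 4.43 TPM in fasted and 12.4 ± 1.31 TPM in fed MKO muscle, and neither overlapped between the groups. Ribosomal proteins themselves moved little: 8 of 77 tested genes were higher and 0 lower (0 at an unadjusted p below 0.05), with a median log2 change of 0.086, and after quantile normalization the median was -3.78e-04 with 2 genes called higher and 2 lower. Among translation factors 21 of 42 tested genes were higher and 3 lower, with a median log2 change of 0.19. The cap-binding factor Eif4e was an exception with 14.2, 14.2, 16.2, 16.0 and 15.1 TPM in fasted MKO muscle, against 22.3, 22.4, 24.5, 21.7 and 22.9 TPM in fed MKO muscle (log2 change -0.65 ± 0.084, limma adjusted p = 6.45e-05), while its helicase partner Eif4a1 averaged 29.9 ± 4.49 TPM in fasted and 17.2 ± 1.14 TPM in fed MKO muscle (log2 change 0.73 ± 0.073, limma adjusted p = 8.53e-06). Cytosolic aminoacyl-tRNA synthetases, which charge tRNAs, had 16 higher and 1 lower of 22 tested genes, led by Eprs (log2 change 0.78 ± 0.088) and Vars (log2 change 0.69 ± 0.07), and the lower one was Aimp2, a scaffold of their complex (log2 change -0.80 ± 0.094).

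In the integrated stress response 11 of 26 tested genes were higher and 6 lower, with a median log2 change of 0.46. It had 11 higher and 2 lower as deposited, and 11 higher and 3 lower after quantile normalization. Chac1, which breaks down glutathione, had 145, 215, 81.9, 85.0 and 166 TPM in fasted MKO muscle, against 11.2, 16.2, 6.38, 6.52 and 4.04 TPM in fed MKO muscle (log2 change 3.95 ± 0.36, limma adjusted p = 3.55e-06), and the factor Cebpb had 44.2, 58.2, 34.6, 34.0 and 47.3 TPM in fasted MKO muscle, against 10.5, 10.8, 13.2, 12.1 and 9.43 TPM in fed MKO muscle (log2 change 1.87 ± 0.13, limma adjusted p = 4.76e-07). Ppp1r15a, the subunit that ends the block on translation, averaged 38.4 ± 10.2 TPM in fasted and 9.82 ± 1.61 TPM in fed MKO muscle (log2 change 1.87 ± 0.14, limma adjusted p = 9.49e-07). The enzyme of serine synthesis Psph fell (log2 change -0.81 ± 0.10). Chaperones of the ER had 6 higher and 6 lower of 24 tested genes. The ER co-chaperone Dnajb9 rose (log2 change 1.03 ± 0.10) and the disulfide isomerase Pdia4 fell (log2 change -0.78 ± 0.12). Heat shock proteins had 6 higher and 6 lower of 36 tested genes (6 higher and 2 lower as deposited), with the muscle small heat shock protein Hspb3 lowest (log2 change -1.11 ± 0.094).

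Lipid synthesis fell as a group. Of the fatty acid synthesis genes 2 of 21 tested genes were higher and 16 lower, with a median log2 change of -0.64, and of the sterol genes 2 of 29 tested genes were higher and 15 lower, with a median log2 change of -0.39. Scd2, a desaturase that makes oleic acid, had 3.57, 2.67, 3.21, 2.45 and 2.47 TPM in fasted MKO muscle, against 16.1, 13.5, 14.9997, 17.0 and 26.3 TPM in fed MKO muscle (log2 change -2.61 ± 0.15, limma adjusted p = 1.44e-07). Srebf1, the transcription factor of lipid synthesis that insulin raises, had 10.97, 7.07, 8.48, 8.51 and 7.64 TPM in fasted MKO muscle, against 30.3, 30.8, 19.4, 20.2 and 27.4 TPM in fed MKO muscle (log2 change -1.62 ± 0.16, limma adjusted p = 6.45e-06). In both genes every fasted library lay below every fed one. Dhcr7, the last enzyme of cholesterol synthesis, fell with 0.763 ± 0.246 TPM in fasted and 2.16 ± 0.305 TPM in fed MKO muscle (log2 change -1.49 ± 0.19, limma adjusted p = 5.34e-05). Among the 4 genes of both lists that rose were Acacb, the acetyl-CoA carboxylase that regulates fat oxidation (log2 change 0.98 ± 0.086), and Fdft1, squalene synthase (log2 change 0.66 ± 0.086).

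Amino acid breakdown had 15 higher and 2 lower of 29 tested genes (median 0.19). Glul, glutamine synthetase, through which muscle exports nitrogen, had 335, 589, 268, 289 and 303 TPM in fasted MKO muscle, against 70.4, 68.5, 54.9, 61.5 and 61.4 TPM in fed MKO muscle (log2 change 2.37 ± 0.16, limma adjusted p = 3.90e-07). Bckdha, a subunit of the complex that commits branched-chain amino acids to breakdown, averaged 52.1 ± 7.76 TPM in fasted and 31.4 ± 2.78 TPM in fed MKO muscle (log2 change 0.66 ± 0.082, limma adjusted p = 4.41e-05), and Gpt2, the mitochondrial alanine aminotransferase, 97.2 ± 13.9 TPM in fasted and 54.1 ± 7.68 TPM in fed MKO muscle (log2 change 0.79 ± 0.10, limma adjusted p = 7.53e-05). Among transporters, Slc7a2, which carries cationic amino acids, had 56.8, 89.6, 40.1, 51.7 and 53.2 TPM in fasted MKO muscle, against 10.7, 11.8, 9.14, 8.67 and 13.2 TPM in fed MKO muscle (log2 change 2.34 ± 0.16, limma adjusted p = 3.90e-07), and Slc43a1, which carries branched-chain ones, 33.5, 42.7, 24.04, 27.5 and 24.1 TPM in fasted MKO muscle, against 5.53, 5.79, 2.67, 3.98 and 4.57 TPM in fed MKO muscle (log2 change 2.68 ± 0.20, limma adjusted p = 7.57e-07). Every fasted library held more of both transporters than every fed one. The list of amino acid transporters had 7 higher and 5 lower of 17 tested genes (7 and 1 as deposited). Its median log2 change of 0.14 was -0.0079 without the mitochondrial genome.

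Polyamine genes split by enzyme, with 4 higher and 5 lower of 13 tested genes. Odc1, which makes putrescine, had 124, 224.4, 122, 169 and 164 TPM in fasted MKO muscle, against 36.7, 31.1, 52.3, 31.6 and 44.3 TPM in fed MKO muscle (log2 change 1.96 ± 0.17, limma adjusted p = 2.65e-06). Amd1, which makes the donor for the next steps, had 509, 474, 467, 548 and 454 TPM in fasted MKO muscle, against 1187, 1039, 949, 787 and 1322 TPM in fed MKO muscle (log2 change -1.15 ± 0.12, limma adjusted p = 1.39e-05). The first enzyme of the pathway was thus higher and the next lower, both with no overlap. Amd2, a near-identical copy, followed Amd1 (log2 change -1.16 ± 0.14), and reads may have been shared between them. Smox, spermine oxidase, fell too (log2 change -0.83 ± 0.15). The largest fall of any gene under the naming rule was that of Nmrk2, the muscle nicotinamide riboside kinase of NAD synthesis (chr10:81198170-81202051, minus strand), with 0.991, 1.07, 1.23, 0.561 and 0.828 TPM in fasted MKO muscle, against 50.3, 49.9, 32.3, 20.9 and 35.4 TPM in fed MKO muscle (log2 change -5.22 ± 0.24, limma adjusted p = 3.30e-08). Tfrc, the transferrin receptor for iron uptake, had 8.92, 7.33, 11.7, 8.89 and 8.42 TPM in fasted MKO muscle, against 37.3, 36.7, 62.6, 52.3 and 62.7 TPM in fed MKO muscle (log2 change -2.50 ± 0.17, limma adjusted p = 4.44e-07), while the iron exporter Slc40a1 averaged 13.6 ± 0.827 TPM in fasted and 5.94 ± 0.849 TPM in fed MKO muscle (log2 change 1.13 ± 0.083, limma adjusted p = 7.23e-07). At the mRNA level Tfrc and Slc40a1 changed in opposite directions. The whole iron list had 5 higher and 4 lower of 15 tested genes, with a median of -0.010 (0.050 as deposited). The creatine genes had 1 higher and 4 lower of 6 tested genes, with the brain-type kinase Ckb lowest (log2 change -1.1999 ± 0.18) and the muscle kinase Ckm higher (log2 change 0.30 ± 0.095), a call that was lost without fasted replicate 1 or without fed replicate 4 (0.28 and 0.27).

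Clock genes changed in both directions, with 9 higher and 6 lower of 18 tested genes of the core clock and 6 higher and 3 lower of 15 of its outputs. Dbp, an output transcription factor with a strong daily rhythm, had 1.37, 2.03, 1.58, 1.58 and 1.55 TPM in fasted MKO muscle, against 18.5, 23.6, 3.99, 5.66 and 7.33 TPM in fed MKO muscle (log2 change -2.53 ± 0.41, limma adjusted p = 3.49e-04). Fed replicates 1 and 2 stood over 2-fold above the other fed libraries, and every fasted library was below all 5 of them. Bhlhe40, a repressor of the clock, averaged 12.0 ± 1.13 TPM in fasted and 32.0 ± 4.95 TPM in fed MKO muscle (log2 change -1.46 ± 0.12, limma adjusted p = 1.20e-06), and Cry2, a core repressor, 15.9 ± 3.26 TPM in fasted and 5.98 ± 0.776 TPM in fed MKO muscle (log2 change 1.32 ± 0.11, limma adjusted p = 1.76e-06). The time of day at which fed mice were killed is not given in the sources used here, so the effects of food and of time of day cannot be told apart.

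Immediate early genes, which respond within minutes to signals, had 16 higher and 2 lower of 24 tested genes and a median of 0.66. Btg2, an antiproliferative factor, had 56.3, 104, 36.5, 32.1 and 39.5 TPM in fasted MKO muscle, against 6.12, 7.71, 6.25, 7.53 and 8.38 TPM in fed MKO muscle (log2 change 2.69 ± 0.23, limma adjusted p = 2.53e-06). Maff, a small Maf transcription factor, had 6.66, 12.8, 3.62, 5.60 and 6.85 TPM in fasted MKO muscle, against 0.473, 0.567, 0.855, 1.23 and 0.550 TPM in fed MKO muscle (log2 change 3.005 ± 0.28, limma adjusted p = 5.25e-06). The groups were well apart in both. Fos, the classic member, had means of 3.55 TPM in fasted and 1.87 TPM in fed muscle and was not called. The AMPK and energy sensing list had 6 higher and 3 lower of 17 tested genes (median 0.040). The cAMP and PKA signaling list had 5 higher and 8 lower of 22 (median -0.072). Of the AMPK genes, which sense low energy, Prkag3, the regulatory subunit found in fast fibers, had 29.0, 26.6, 24.4, 26.0 and 24.3 TPM in fasted MKO muscle, against 108, 98.4, 54.2, 68.7 and 89.5 TPM in fed MKO muscle (log2 change -1.70 ± 0.16, limma adjusted p = 4.75e-06), and the AMPK-related kinase Sik1 averaged 13.3 ± 5.40 TPM in fasted and 3.21 ± 0.560 TPM in fed MKO muscle (log2 change 1.90 ± 0.18, limma adjusted p = 5.48e-06). Pde4a, a phosphodiesterase that ends cAMP signals, averaged 3.76 ± 0.694 TPM in fasted and 13.2 ± 1.25 TPM in fed MKO muscle (log2 change -1.86 ± 0.14, limma adjusted p = 7.57e-07), whereas Pde4d, of the same family, rose (log2 change 1.32 ± 0.089).

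Antioxidant genes had 15 higher and 5 lower of 38 tested genes. Cat, catalase, had 144, 161, 90.5, 102 and 133 TPM in fasted MKO muscle, against 29.5, 32.8, 37.1, 42.6 and 33.4 TPM in fed MKO muscle (log2 change 1.76 ± 0.13, limma adjusted p = 7.63e-07). Srxn1, which repairs oxidized peroxiredoxins, had 57.5, 71.5, 35.2, 31.4 and 69.6 TPM in fasted MKO muscle, against 10.1, 8.59, 12.4, 11.5 and 12.7 TPM in fed MKO muscle (log2 change 2.13 ± 0.19, limma adjusted p = 3.81e-06). Both were higher in every fasted library, as was their regulator Nfe2l2, NRF2 (log2 change 1.26 ± 0.11). The metallothioneins Mt1 and Mt2, which bind zinc, averaged 114 ± 24.1 TPM in fasted and 17.9 ± 4.95 TPM in fed MKO muscle and 46.7 ± 10.3 TPM in fasted and 5.93 ± 1.94 TPM in fed MKO muscle (limma adjusted p = 2.13e-07 and 2.07e-07). Zinc transporters of the same list moved by less than 1 on the log2 scale.

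The list of cell-cycle arrest and cell cycle had 4 higher and 6 lower of 18 tested genes (2 and 9 without the mitochondrial genome). Cdkn1a, the cell-cycle inhibitor p21, had 126, 169, 99.1, 92.0 and 103 TPM in fasted MKO muscle, against 14.0, 15.8, 8.99, 18.4 and 13.6 TPM in fed MKO muscle (log2 change 2.99 ± 0.18, limma adjusted p = 1.92e-07), and Ccnd1, cyclin D1, 0.826, 0.878, 0.451, 0.337 and 0.631 TPM in fasted MKO muscle, against 2.74, 2.84, 3.75, 3.89 and 2.97 TPM in fed MKO muscle (log2 change -2.31 ± 0.19, limma adjusted p = 1.68e-06). The inhibitor was thus higher and the cyclin lower in every fasted library. Myod1, the myogenic transcription factor, had 3.47, 1.82, 3.15, 1.30 and 2.76 TPM in fasted MKO muscle, against 16.5, 15.4, 19.9, 16.7 and 25.3 TPM in fed MKO muscle (log2 change -2.98 ± 0.22, limma adjusted p = 7.86e-07), and Gadd45a, a stress gene that also rises after denervation, 77.4, 147, 43.0, 44.2 and 74.1 TPM in fasted MKO muscle, against 11.1, 10.7, 13.2, 10.3 and 14.0 TPM in fed MKO muscle (log2 change 2.49 ± 0.24, limma adjusted p = 6.78e-06). Myod1 and Gadd45a belong to the list of denervation and neuromuscular junction genes, which had 5 higher and 7 lower of 26 (median -0.096). The slow fiber contractile genes had 0 higher (0 at an unadjusted p below 0.05) and 1 lower of 12 tested genes. The fast ones had 4 higher and 3 lower of 16. Myh4, the fast myosin IIb heavy chain, averaged 8005 ± 1354 TPM in fasted and 5409 ± 404 TPM in fed MKO muscle (log2 change 0.49 ± 0.11, limma adjusted p = 0.00372), beside the higher sum of fiber markers given above. The machinery that couples excitation to contraction had 3 higher and 12 lower of 28 tested genes. Casq1, the calcium buffer of the reticulum, had 779, 935, 939, 861 and 917 TPM in fasted MKO muscle, against 1558, 1532, 1156, 1318 and 1354 TPM in fed MKO muscle (log2 change -0.70 ± 0.10, limma adjusted p = 1.81e-04), and Jph2, which holds membranes at the junction, averaged 69.3 ± 9.04 TPM in fasted and 122 ± 12.7 TPM in fed MKO muscle (log2 change -0.87 ± 0.10, limma adjusted p = 2.10e-05), while the calcium pump Atp2a1 rose (log2 change 0.49 ± 0.10).

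The list of calcineurin, NFAT and their predicted targets in muscle had 2 higher and 7 lower of 19 tested genes. The predicted targets in it were chosen by the study from these samples, so their direction is no independent evidence. Mettl11b, a methyltransferase gene, averaged 8.62 ± 1.14 TPM in fasted and 18.6 ± 2.61 TPM in fed MKO muscle (log2 change -1.16 ± 0.14, limma adjusted p = 2.99e-05), and Rcan3, an inhibitor of calcineurin, 1.11 ± 0.142 TPM in fasted and 1.70 ± 0.268 TPM in fed MKO muscle (log2 change -0.64 ± 0.12, limma adjusted p = 9.97e-04). The catalytic subunit Ppp3ca was 65.8 TPM in fasted and 68.4 TPM in fed muscle on average and was not called.

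Most genes of the extracellular matrix fell, with 1 higher and 32 lower of 49 tested genes and a median log2 change of -0.53. Col15a1, a basement membrane collagen, had 4.62, 4.24, 4.14, 4.13 and 3.64 TPM in fasted MKO muscle, against 10.6, 9.64, 8.39, 11.1 and 11.8 TPM in fed MKO muscle (log2 change -1.34 ± 0.09, limma adjusted p = 3.72e-07). Serpinh1, the chaperone of collagen folding, had 12.0, 13.6, 12.3, 10.1 and 17.6 TPM in fasted MKO muscle, against 24.4, 23.8, 27.6, 32.5 and 40.0 TPM in fed MKO muscle (log2 change -1.23 ± 0.14, limma adjusted p = 2.09e-05). The fasted libraries lay below the fed ones in both. The fibroblast markers, which share collagen genes with this list, summed to 782 ± 79.0 TPM in fasted and 744 ± 129 TPM in fed muscle and were not called as a sum, although 4 of the 8 fell. Dcn alone averaged 691 TPM in fasted and 574 TPM in fed muscle, so the fibroblast sum says little about its other markers. The tenocyte markers summed to 76.0 ± 14.7 TPM in fasted and 117 ± 45.4 TPM in fed muscle. Their part in the matrix result was not tested.

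Interferon-responsive genes and MHC class I had 2 higher and 22 lower of 35 tested genes, with a median of -0.46, and most were low, as Ifit3, an antiviral gene, with 1.25 ± 0.116 TPM in fasted and 2.35 ± 0.437 TPM in fed MKO muscle (log2 change -0.91 ± 0.13, limma adjusted p = 1.14e-04). Psmb10, a subunit of the immunoproteasome, averaged 4.08 ± 0.904 TPM in fasted and 7.41 ± 1.07 TPM in fed MKO muscle (log2 change -0.92 ± 0.15, limma adjusted p = 2.96e-04), against the rise of the standard core subunits. Macrophage markers summed to 114 ± 23.1 TPM in fasted and 123 ± 47.7 TPM in fed muscle, so the groups overlapped. The hypoxia and angiogenesis list had 5 higher and 10 lower of 28 tested genes. Vegfa, the growth factor of capillaries, had 25.8, 22.4, 29.7, 19.9 and 28.5 TPM in fasted MKO muscle, against 41.5, 42.2, 60.5, 44.0 and 45.8 TPM in fed MKO muscle (log2 change -0.95 ± 0.13, limma adjusted p = 1.10e-04), and its receptor Kdr averaged 3.78 ± 0.403 TPM in fasted and 7.89 ± 1.02 TPM in fed MKO muscle (log2 change -1.101 ± 0.092, limma adjusted p = 2.03e-06). The 8 endothelial markers summed to 75.2 ± 7.06 TPM in fasted and 76.6 ± 6.49 TPM in fed muscle. Cited4, a cofactor of CBP and p300, had 3.23, 2.25, 2.77, 1.79 and 2.73 TPM in fasted MKO muscle, against 18.7, 22.1, 12.6, 12.7 and 20.1 TPM in fed MKO muscle (log2 change -2.76 ± 0.18, limma adjusted p = 2.82e-07), and fasted values lay below all fed ones.

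Most of this response was also present in WT muscle. In a fit of all 18 libraries (12111 genes), 42.9% of genes were called for MKO (5192) and 44.5% for WT (5386), and 3820 were called in both, 73.6% of the MKO calls and 70.9% of the WT calls. Of these, 3808 had the same direction, 1868 higher and 1940 lower in fasted muscle, and 12 the opposite. The MKO and WT comparisons share no library. The difference between the MKO and the WT fasting response itself passed the test for 0.116% of genes (14, of which 11 had a higher and 3 a lower change in MKO), and 1392 passed an unadjusted p below 0.05.

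**Figure D3:**
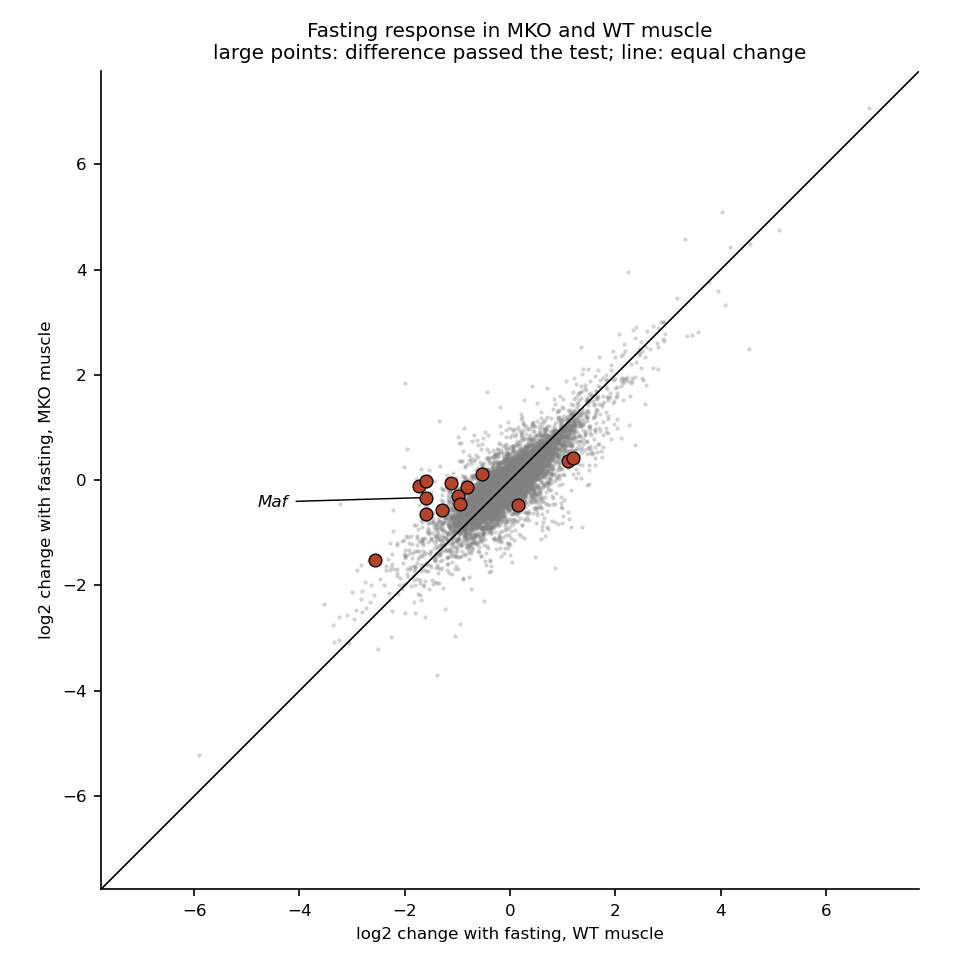
Log2 change with fasting in WT muscle (horizontal axis) against that in MKO muscle (vertical axis) for 12111 genes of the 18-library fit, with the line of equal change. The 14 genes whose difference between MKO and WT passed the test are drawn as large filled points, and Maf lies at -1.59 in WT and -0.33 in MKO.

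Gene lists are set side by side for the 2 genotypes from the 18-library fit, with no test between lists. Atrophy ligases had 13 higher and 2 lower in MKO (median 0.24) and 13 higher and 1 lower in WT (median 0.38) of 23 tested genes, the 19S regulator 17 higher in MKO (median 0.52) and 15 higher in WT (median 0.44) of 21 tested genes and autophagy 22 higher and 6 lower in MKO (median 0.33) and 21 higher and 10 lower in WT (median 0.38) of 40 tested genes. Glucocorticoid response genes had 21 higher and 3 lower in MKO (median 1.28) and 20 higher and 2 lower in WT (median 1.42) of 30 tested genes. Beta-oxidation genes had 14 higher in MKO (median 0.47) and 18 higher in WT (median 0.64) of 25 tested genes, and were thus called in both genotypes. Complex I genes had 4 lower in MKO (median -0.14) and 2 higher and 6 lower in WT (median -0.18) of 36 tested genes. Fast fiber genes had 4 higher and 2 lower in MKO (median 0.048) and 6 lower in WT (median -0.22) of 16. Mitochondrial ribosomal proteins had 8 higher and 11 lower in MKO (median -0.057) and 5 higher and 27 lower in WT (median -0.19) of 75. In these 2 lists 5 and 6 genes passed an unadjusted p below 0.05 for the difference, all with a higher change in MKO, and none was called. Cytosolic ribosomal proteins had 8 higher in MKO (median 0.093) and 3 higher and 15 lower in WT (median -0.055) of 77 tested genes, and 19 of them passed an unadjusted p below 0.05 for the difference but none the adjusted test. Collagens and matrix had 2 higher and 30 lower in MKO (median -0.53) and 5 higher and 19 lower in WT (median -0.27) of 49 tested genes, with 10 genes at an unadjusted p below 0.05 for the difference and none called. For the lead genes the difference of the response was -0.026 ± 0.39, limma adjusted p = 0.985 for Trim63, -0.068 ± 0.41, limma adjusted p = 0.96 for Pdk4 and 0.25 ± 0.31, limma adjusted p = 0.789 for Acot2, so none passed the test, which does not show that the responses were equal.

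Maf, a large Maf transcription factor of fast myosin genes (chr8:115682942-115707794, minus strand), had 36.6, 41.2, 44.6, 41.3 and 49.0 TPM in fasted MKO muscle, against 58.4, 61.1, 48.2, 38.1 and 54.0 TPM in fed MKO muscle. In WT muscle it had 25.7, 19.9, 19.5 and 13.3 TPM in fasted WT muscle, against 55.5, 60.8, 55.1 and 58.3 TPM in fed WT muscle. The fall with fasting was large in WT and slight in MKO muscle (-0.33 ± 0.12 in MKO and -1.59 ± 0.14 in WT muscle, difference 1.26 ± 0.18, limma adjusted p = 0.0215). Alg2, a mannosyltransferase of protein glycosylation, had 5.06, 4.20, 5.05, 4.94 and 4.70 TPM in fasted MKO muscle, against 7.38, 8.01, 6.90, 6.62 and 7.46 TPM in fed MKO muscle, and 2.51, 2.86, 2.25 and 1.95 TPM in fasted WT muscle, against 6.35, 7.92, 7.84 and 7.24 TPM in fed WT muscle. It fell in both genotypes and less in MKO (-0.65 ± 0.10 in MKO and -1.59 ± 0.11 in WT muscle, difference 0.94 ± 0.15, limma adjusted p = 0.0215).

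Slc6a6, the taurine transporter, was one of 3 genes with a lower change in MKO. It had 15.9, 12.8, 13.001, 12.0 and 13.3 TPM in fasted MKO muscle, against 17.2, 17.7, 16.9, 18.1 and 19.5 TPM in fed MKO muscle, and 16.1, 16.3, 14.9 and 12.9 TPM in fasted WT muscle, against 14.3, 13.2, 13.3 and 13.4 TPM in fed WT muscle. Every fasted MKO library lay below every fed MKO library, whereas WT libraries overlapped (-0.47 ± 0.064 in MKO and 0.14 ± 0.072 in WT muscle, difference -0.62 ± 0.10, limma adjusted p = 0.0215). The other 2 were Slc35f5, a solute carrier (0.37 ± 0.084 in MKO and 1.104 ± 0.094 in WT muscle), and Zbtb2, a zinc finger factor (0.42 ± 0.10 in MKO and 1.195 ± 0.11 in WT muscle). Shisa2, which hinders maturation of growth factor receptors, had 31.1, 32.3, 31.5, 28.3 and 31.9 TPM in fasted MKO muscle, against 31.8, 35.7, 30.4, 26.8 and 31.4 TPM in fed MKO muscle, and 20.8, 18.9, 14.6 and 15.9 TPM in fasted WT muscle, against 28.4, 42.5, 40.4 and 42.6 TPM in fed WT muscle (-0.059 ± 0.12 in MKO and -1.13 ± 0.13 in WT muscle, difference 1.07 ± 0.18, limma adjusted p = 0.0254). Igfals, which binds circulating IGF complexes, had 2.45, 2.17, 1.49, 1.71 and 2.04 TPM in fasted MKO muscle, against 2.21, 2.31, 1.73, 1.27 and 2.15 TPM in fed MKO muscle, and 0.811, 0.590, 0.902 and 0.903 TPM in fasted WT muscle, against 2.08, 2.64, 2.64 and 3.06 TPM in fed WT muscle (-0.019 ± 0.18 in MKO and -1.59 ± 0.20 in WT muscle, difference 1.57 ± 0.27, limma adjusted p = 0.0254). Both fell with fasting in every WT library and were not called in MKO muscle, where the groups overlapped. Plcd4, a phospholipase, fell in both genotypes (-1.52 ± 0.13 in MKO and -2.57 ± 0.14 in WT muscle). The remaining genes were Ccdc50, Gm4841, Zbed4, 4930430F08Rik, Vgll4 and Zfp825, with differences between 0.50 and 1.61. The count rested on single libraries: by limma it was 0 without fasted MKO replicate 4, without fed MKO replicate 5 or without fed WT replicate 2, 3 or 4 (1084 to 1341 genes at an unadjusted p below 0.05), and it was 38 without fasted WT replicate 4 and 25 without fed WT replicate 1. It was 3 with the replicate block and 4 on the values as deposited. All 14 kept their sign in every one of 23 settings, and each passed the test in between 3 (Vgll4) and 18 (Maf) of them. Fasted WT replicate 4 had a mitochondrial share of 81.3% of TPM, against 70.8 to 73.5% in the other fasted WT libraries. It had 10729 genes at 0.5 TPM, and they had 11180 to 11338. The share was 74.3 to 75.0% in fed WT and 61.5 to 70.4% in MKO libraries. Its part in the difference between genotypes was not tested.

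**Figure D4:**
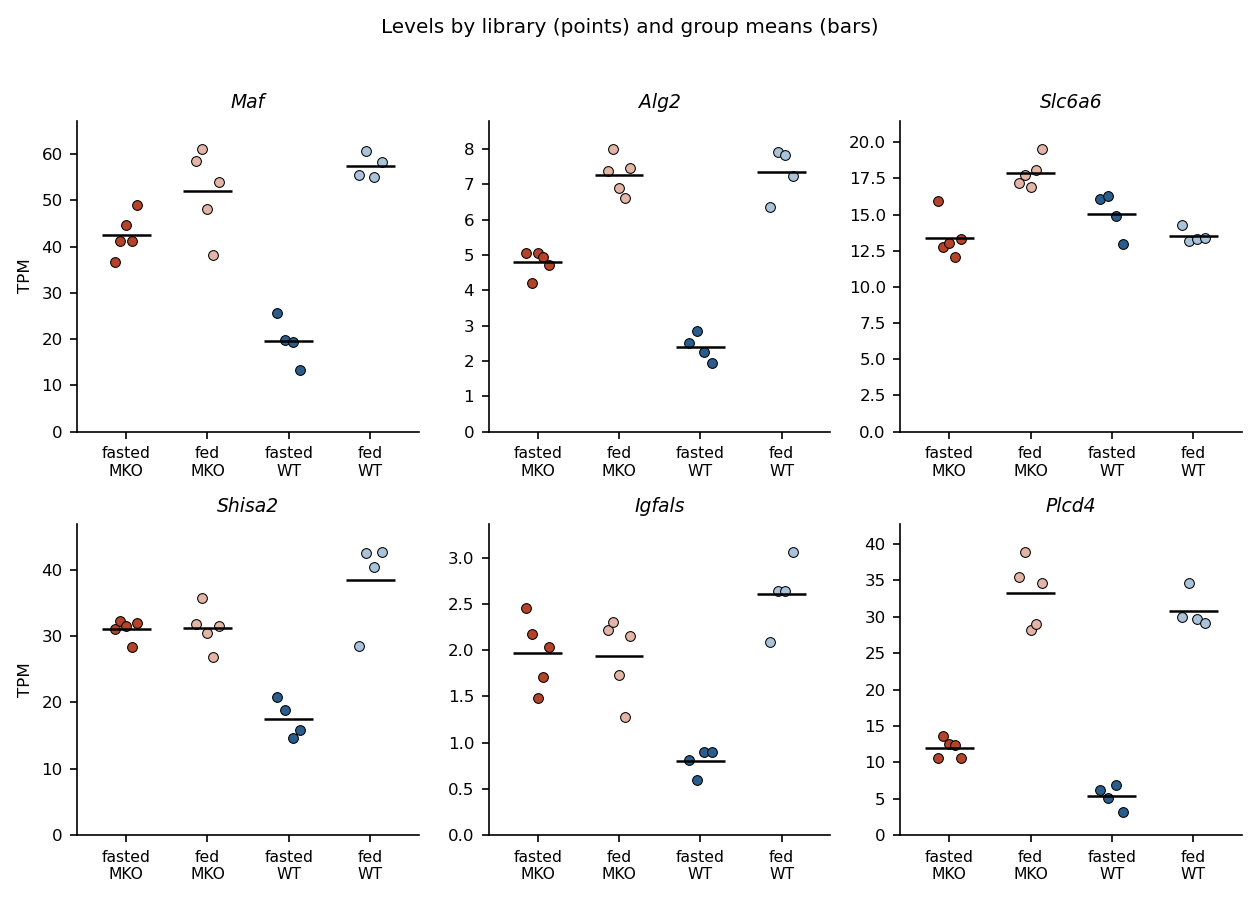
Level of 6 of the 14 genes whose fasting response differed between MKO and WT, in TPM on a linear axis starting at 0, by library for fasted MKO, fed MKO, fasted WT and fed WT muscle from left to right, with a bar at each mean. For Maf, Shisa2 and Igfals the fasted and fed points lie at like heights in MKO and apart in WT, and for Slc6a6 they lie apart in MKO.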

How the data were processed

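Poly(A) RNA of muscle from 5 fasted and 5 fed MKO mice and from 4 fasted and 4 fed WT mice was sequenced as single reads. The labels name a SMARTer kit and the supplementary methods an adapter ligation, so the library type is not settled. The authors mapped reads to mm10/GRCm38 and estimated expression with the CLC Genomics Workbench (version and settings not given in sources used here). The deposited values are TPM for 46983 genes, with the same total in each library. TPM keep no read depth, so counting error could not be given, and a change in a few abundant genes moves all others. The 8 columns of the authors' own comparisons (fold changes and FDR p-values) were not used, and every per-sample column belonged to this series.

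Genes that reached 0.5 TPM in 4 or more MKO libraries were kept, as log2(TPM + 0.1), and each library was shifted to the same median. limma 3.58.1 (R 4.3.3, lmFit and eBayes with trend) tested fasted against fed MKO muscle with no covariate, and a fit of all 18 libraries tested the difference between the MKO and WT responses, with Benjamini-Hochberg adjustment. The fit was also run on simulated data in which genes varied independently and few were changed, so that run does not check the scaling. Sums of markers and the mitochondrial share were compared with exact permutation tests (scipy 1.17.1), in which 5 against 5 libraries cannot give a two-sided p below 0.00794. Alternatives were 3 other scalings, 2 pseudocounts, 2 filters, a replicate block, a stricter adjusted p of 0.01, all 18 libraries in 1 fit and leaving out each library. Positions and gene types came from GENCODE M21, which held 98.9% of the identifiers, and promoters from RefSeq by symbol or synonym.

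Members and lists were chosen with earlier results of these data known. Genes were named by rule: the 15 highest and 15 lowest changes called under both scalings, averaging 5 TPM or more and not overlapping between groups; up to 5 genes of each of 57 lists with the smallest adjusted p; genes that the study discusses; 10 genes of the MKO and WT difference; and marker genes. Nr3c1, Fos and Ppp3ca, and the genes of the difference beyond the first 10, were added after their values were seen. Some genes under the rule are not reported here.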

Additional observations from a re-analysis of the deposited data

Results flagged for a closer look

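In 8 of 134 groups of 5 libraries looked at (67 genes, fasted and fed MKO muscle), 1 library lay far from the other 4 by Dixon's criterion, and chance alone gives this in about 1 of 20 groups. Fasted replicate 2 was that library in 4 of the 8. It was the highest for Glul with 589 TPM (the other fasted libraries had 268 to 335 TPM), for Gabarapl1 with 243 TPM (others 69.0 to 114 TPM) and for Fbp2 with 178 TPM (others 64.1 to 96.9 TPM), and the lowest for Pdp1 with 8.84 TPM (others 10.77 to 11.05 TPM). The same mouse had the highest level of Trim63 and Fbxo32. Fasted replicate 5 stood above the others for Ppargc1a with 21.7 TPM (others 6.57 to 10.5 TPM). Among fed libraries, replicate 3 was low for Fbxo31 with 3.78 TPM (others 4.23 to 4.38 TPM) and high for Vegfa with 60.5 TPM (others 41.5 to 45.8 TPM), and replicate 5 was high for Scd2 with 26.3 TPM (others 13.5 to 17.0 TPM).

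The response to fasting differed between MKO and WT muscle for 14 genes by the test of the difference itself (limma, adjusted over 12111 genes). The count was 3 with the replicate block, 4 on the values as deposited and 0 without any 1 of 5 libraries (fasted MKO replicate 4, fed MKO replicate 5 and fed WT replicates 2, 3 and 4). The log2 change in MKO muscle exceeded that in WT muscle by 1.61 for Gm4841, 1.57 for Igfals, 1.26 for Maf, 1.07 for Shisa2, 1.054 for Plcd4, 0.94 for Alg2, 0.74 for Ccdc50, 0.70 for Vgll4, 0.69 for 4930430F08Rik, 0.65 for Zfp825 and 0.50 for Zbed4. It was lower in MKO for Zbtb2 (difference -0.78), Slc35f5 (-0.74) and Slc6a6 (-0.62).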

How the results depend on the processing

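Of the 146 genes described, 140 were called, and 133 of these kept their call and direction under all 21 alternatives other than the stricter threshold. The other 7 were Fbxo40, Ckm, Cycs, Dlat, Myh4, Pygm and Slc35f5. The naming rule favored genes with a small adjusted p or a call under both scalings. The share of described genes that kept a call thus does not describe all genes. At an adjusted p below 0.01, Fbxo40 and Ckm were not called. Of genes that were not called, Igfals turned positive as deposited (0.035), after quantile normalization (0.080), with no filter (0.18) and with fed libraries 3 to 5 only (0.17), Mstn as deposited (0.014), with no filter (0.16) and with fed libraries 3 to 5 only (0.028), Shisa2 with no filter (0.14) and with fed libraries 3 to 5 only (0.040), and Cox4i1 with no filter (0.016) and with fed libraries 1 and 2 only (0.041). Leaving out 1 library gave ranges of -0.16 to 0.051 for Igfals and -0.13 to 0.018 for Mstn.

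The number of genes called was 4884 to 5262 without 1 library. With no filter on low values 4194 were higher and 1398 lower (20745 genes tested). TPM without the mitochondrial genome gave 1994 higher and 3581 lower of 13831 genes tested, with a median over genes of -0.13, so the split between higher and lower calls rests on the scaling. The medians of 16 lists changed sign under 1 or more of the 3 other scalings, those of ubiquitin genes, deubiquitinases, ketone use, glycolysis, glycogen, the TCA cycle, ribosomal proteins, ER chaperones, heat shock proteins, amino acid transporters, insulin signaling, IGF ligands, AMPK, fast fiber genes, metallothioneins and iron genes. The list of the mitochondrial genome has no value under the scaling that leaves it out. With fed libraries 1 and 2 only, an alternative chosen after seeing the data, 1802 genes were higher and 1947 lower, and with fed libraries 3 to 5 only 2258 were higher and 2221 lower. At an adjusted p below 0.01, 1884 genes were lower.

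The replicate block gave 4981 calls (2316 higher and 2665 lower) in MKO muscle and 3 genes of the difference between MKO and WT. Same-numbered fasted and fed MKO libraries correlated between -0.10 and 0.040 in their deviations, none correlated best with its own number, and the numbers were not taken to pair the mice. The difference of 14 genes was 4 as deposited, 8 after quantile normalization and 0 to 38 without 1 library.

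The mitochondrial share differed by -3.39 to -1.77 points without 1 library (exact permutation p 0.0159 to 0.0794). Without 1 library the marker sums differed by 7877 to 12370.2 TPM for muscle fiber, 15.8 to 17.7 TPM for satellite cell and 133 to 169 TPM for smooth muscle and pericyte markers, with an adjusted p of 0.0635, or 0.0476 without fed replicate 5 (exact permutation test, in which 4 against 5 libraries cannot give a raw p below 0.0159). The adipocyte sum differed by 112 to 167 TPM and passed without fed replicate 5 (159 TPM, exact permutation test, adjusted p = 0.0476) and after scaling to the same median (128 TPM). Sums of endothelial (-4.25 to 0.24 TPM), macrophage (-19.9 to 9.49 TPM) and neutrophil markers (-0.11 to 0.13 TPM, and -0.022 TPM after median scaling) changed sign without a call. The causes of these shifts were not tested. Without read depth, the counting error of low genes is unknown.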
